A study of Caenorhabditis elegans with 18 samples.

Results

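Longer frame-shifting cassette exons are described here: exons of more than 75 nt, with a length that is not divisible by 3, that can be spliced into or left out of an mRNA of Caenorhabditis elegans. They were taken from the tables of skipped-exon events, joined over the deposited workbooks, by the exon length alone. Of 4703 skipped-exon events, 1913 met the rule. These held 1822 distinct exons in 1448 genes. Another 2061 events had exons of more than 75 nt whose length kept the frame, and 729 had exons of 75 nt or less. At the edge of the rule, 34 member events had exons of 76 or 77 nt, and 32 events with exons of 73 or 74 nt fell just outside it.

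A cassette exon joins the mRNA when the spliceosome uses both of its splice sites, and it is left out when the exons on either side are joined directly. When such an exon is coding and its length is not a multiple of the codon, the included and skipped mRNAs are read in different frames after it. The change of frame usually brings an early stop codon, and mRNAs with early stop codons are substrates of nonsense-mediated decay, the surveillance pathway first defined in C. elegans by the smg genes. A change in the inclusion of such an exon can therefore change the end of the protein or the amount of its mRNA.

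The study measured RNA from whole N2 Bristol wild-type animals by sequencing of oligo(dT)-selected libraries. The animals were fed bacteria making double-stranded RNA against numr-1/2, ints-4 or, in control(RNAi), the empty vector. numr-1 and numr-2 are neighbouring identical genes for an SR-like protein that are both hit by 1 RNAi construct, and ints-4 (W04A4.5) encodes a subunit of the Integrator complex, which processes the ends of small nuclear RNAs. Feeding began at stage L1, and late in stage L3 the animals were moved to fresh RNAi agar with 300 µM cadmium or without it for 12 h.

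With cadmium there were the groups numr-1/2(RNAi), ints-4(RNAi) and control(RNAi), and the same without it, which makes 6 groups of 3 libraries each. RNAi by feeding acts on the whole animal but poorly in most neurons, and the libraries mix all tissues, so fewer cells of a type and less RNA per cell cannot be told apart. The labels place the harvested animals at the gravid young adult stage and the methods between late L4 and the young adult. The same control libraries serve several comparisons, so the results against them share their errors.

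The inclusion level of an event is the share of its mRNA that holds the exon, in percent, made from inclusion reads and skipping reads after each is divided by the length over which such reads can fall. Reads over the events of all 5 types came to between 2141818 and 4299435 per library, and reads over the 1913 members to between 523994 and 1537403. The authors' pooled level of ints-4 was 642 in ints-4(RNAi) and 1484 in control(RNAi). For numr-1 it was 1.93 in numr-1/2(RNAi) and 3.11 in control(RNAi), and for its identical copy numr-2 it was 28.6 in numr-1/2(RNAi) and 24.1 in control(RNAi). With cadmium, numr-1 was at 51.3 and numr-2 at 56.8 in numr-1/2(RNAi), against 234 for numr-1 and 137 for numr-2 in control(RNAi), in tables that were scaled separately. The pooled values thus show a lower ints-4 level in the libraries labelled ints-4(RNAi), but no lower numr-2 level without cadmium in those labelled numr-1/2(RNAi), and they carry no spread. Yolk gene levels summed over 6 genes were 0.152 of those in control(RNAi) in control(RNAi) with cadmium, 0.187 in ints-4(RNAi) and 3.94 times those in control(RNAi) in numr-1/2(RNAi). For 6 genes of moulting epidermis the sum was 0.886, 0.864 and 0.182 times that in control(RNAi) in the same 3 groups, and for 4 body muscle genes 1.12, 0.992 and 0.737 times. The part of such differences in animal stage or tissue makeup in the results below was not tested.

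The exons were mostly ordinary coding exons that were almost always spliced in. Their median length was 158 nt, with quartiles of 112 and 263 nt and a range of 76 to 3412 nt. Division by 3 left 1 in 980 events and 2 in 933. Both exon ends matched an annotated exon of the Ensembl WBcel235 annotation in 1846 events (96.5%), 1720 (89.9%) lay in coding sequence throughout, and 1875 (98.0%) were in protein-coding genes. The introns on either side had medians of 495 and 433 nt.

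The annotation rarely held the skipped form. It was annotated for 145 members (7.58%), against 416 of the longer frame-preserving exons (20.2%), while the included form was annotated for 1672 members (87.4%). Both forms were annotated for 111 members. In 52 of these the next exon was read in a different frame after skipping, in 40 the next exon was translated in 1 form or in none, in 10 the exon itself was untranslated, and in 9 some transcripts kept the same frame.

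Measured inclusion followed the same split. The mean level over the libraries that listed a member had a median of 99.6%, with a lower quartile of 98.6% and a lowest decile of 91.3%. A level of at least 99% was found for 1316 members (68.8%) and for 1171 frame-preserving longer exons (56.8%). Levels between 10% and 90% were found for 147 members (7.68%), against 354 frame-preserving longer exons (17.2%) and 238 exons of 75 nt or less (32.6%). Only 29 members (1.52%) lay below 10%. These shares are descriptions over events, which share genes and reads and are not replicates.

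Members with an annotated skipped form had a median level of 69.9% (quartiles 21.2% and 94.4%), and 71 of 145 lay between 10% and 90%. Members without one had a median of 99.6%, and 76 of 1768 lay in that range. The medians of the frame-preserving longer exons were 74.6% and 99.6% in the same split, so exons of both kinds stood at middle levels where the skipped form was annotated.

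**Figure D1:**
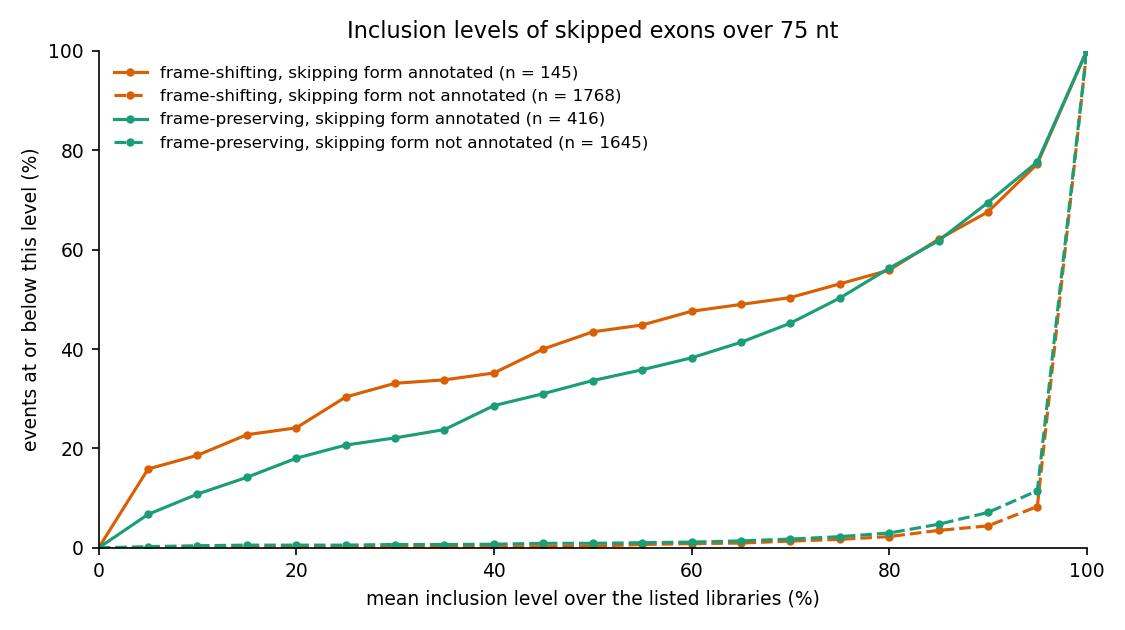
Cumulative share of events (%, vertical axis) at or below each mean inclusion level (%, horizontal axis) for longer frame-shifting and longer frame-preserving exons, each split by whether the skipped form is annotated (145 and 1768 frame-shifting, 416 and 1645 frame-preserving events). The curves of exons without an annotated skipped form stay near 0 until close to 100%, whereas the curves of exons with one climb over the whole range.

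Detection of skipping was sparse. Of the 1913 members, 667 were listed in 2 groups only and 358 in all 6. A level was given in all 18 libraries for 342 members, and at least 1 skipping read was present in a median of 9 of these libraries, against 15 for the 620 frame-preserving longer exons with full levels. In all, 73 of the 342 had skipping reads in every library. The SD between the 3 libraries of a group had a median of 1.57 points, and of 6.73 points for the 68 members at mean levels of 10% to 90%.

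Mean inclusion over the 342 members was lowest in numr-1/2(RNAi) without cadmium. It was 84.9% ± 0.24 (SD, n = 3) in numr-1/2(RNAi) with cadmium, 85.7% ± 0.23 in ints-4(RNAi) with cadmium and 85.1% ± 0.56 in control(RNAi) with cadmium. Without cadmium it was 84.1% ± 0.20 in numr-1/2(RNAi), 85.7% ± 0.37 in ints-4(RNAi) and 85.6% ± 0.50 in control(RNAi). The numr-1/2(RNAi) libraries, at 84.3%, 83.9% and 84.2%, lay below every other library, the next being at 84.5%, and control(RNAi) was at 85.0%, 85.7% and 86.0%. No test was made on these means.

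A library stood apart. In control(RNAi) with cadmium replicate 1, 65.2% of the 342 members were at exactly 100%, against 41.2% and 41.5% in the other libraries of its group. The remaining 17 libraries ran from 33.6% to 49.4%. The frame-preserving longer exons showed the same, with 47.6% against 29.5% and 29.4%, although its reads over members were the most of its group (1345687, against 1169947 and 1166852). Results that rest on this library are given with and without it.

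**Figure D2:**
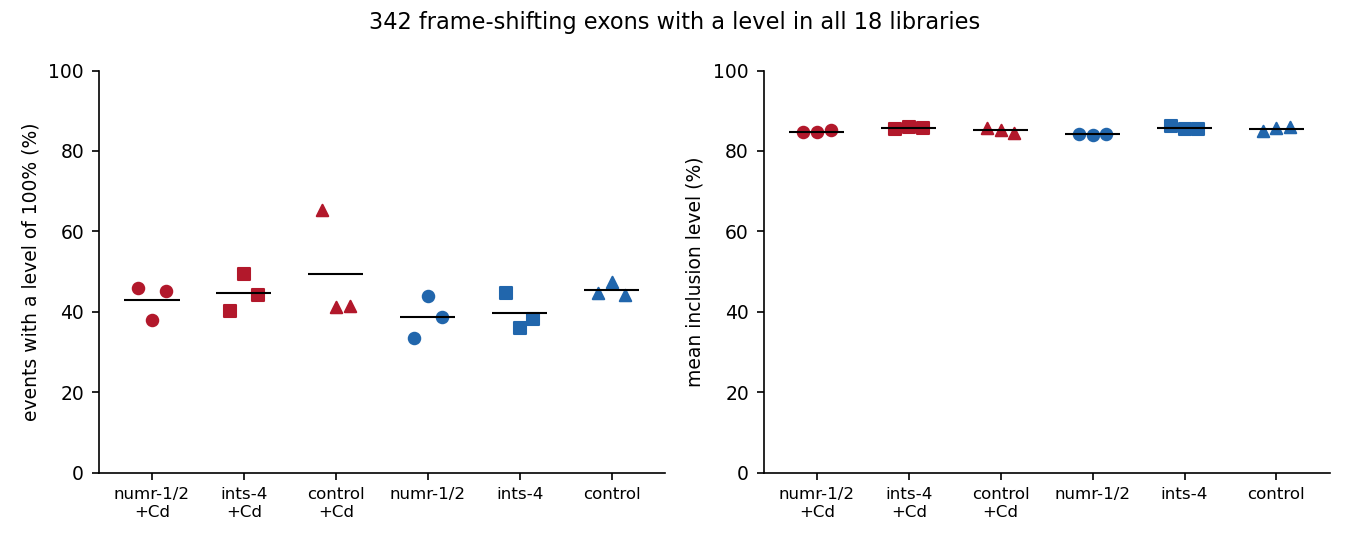
Inclusion over the 342 members with a level in all 18 libraries, by library: share of members at exactly 100% (%, left) and mean level (%, right), with lines at the group means and cadmium groups in red. Group means of the level lie between 84.1% and 85.7%, and control(RNAi) with cadmium replicate 1 stands at 65.2% of members at 100% while the other 17 libraries stay between 33.6% and 49.4%.

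Differential inclusion was tested in 7 comparisons between groups and 2 interactions. A quasi-binomial model of inclusion and skipping reads was fitted to each event with at least 10 reads in every library, with its spread between libraries shared across events, and p-values were adjusted by Benjamini-Hochberg over the events of all 5 types. An adjusted p below 0.05 is a call, and the log2 odds ratio gives the size, positive for more inclusion in the first-named group. Because many members have few reads of the rarer form, a stricter fit was added after seeing the data. Its shared spread was learned only from events with at least 10 reads of the rarer form. It also used a robust estimate, in which an event with an outlying spread between libraries keeps part of its own spread. Both fits are given below. Beside them is how many calls were kept when each library of a comparison was left out in turn (the left-out fits). limma was run on the same events as an alternative, and it called far fewer: of the 57 calls of named members, limma on the deposited levels kept 5 and limma on log2 ratios 0. The 5 were those of mtm-3 in numr-1/2(RNAi) with cadmium against control(RNAi), the 208 nt exon of lev-11 in both RNAi groups without cadmium, and the 128 nt exon of tag-229 for cadmium in control(RNAi) and for ints-4(RNAi) without cadmium. Every other call of a named member was made by the quasi-binomial test and not by limma. For limma the levels were held between fractions of 0.01 and 0.99. The events of unc-87 and rps-3 described below lay beyond these bounds, so limma on levels could not call them. The bounds also set every level of the 128 nt tag-229 exon to 0.99 in control(RNAi) with cadmium and in ints-4(RNAi). This removed the spread within those groups, so the limma calls of tag-229 rest in part on the bounds. On log2 ratios their adjusted p in limma were 0.148 and 0.15. A fit with the replicate numbers as a block kept 0 of the 57 calls.

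Few members were called in any comparison. Of 1749 members tested at least once, 37 were called (33 exons in 30 genes), 22 of them in 1 comparison, 9 in 2 and 6 in 3 or more. The stricter fit called 22 of the 37. Among tested members, 23 of 131 with an annotated skipped form were called (17.6%) and 14 of 1618 without one (0.865%). No test was made of that difference. Members without an annotated skipped form had a median level of 99.6%, against 69.9% for those with one. Near full inclusion there are few skipping reads, and the test has little power. The 2 shares therefore do not compare how often the exons changed. The share of all events called in at least 1 comparison was not worked out.

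For cadmium in control(RNAi), 13 of 768 tested members were called (1.69%), against 3.71% of all tested events. Inclusion was higher for 9 of them and lower for 4, beside 1.09% of all events called higher and 2.62% lower. Longer frame-preserving exons had 11 calls higher and 10 lower, exons of 75 nt or less 4 and 3, and the other event types 9 and 62. Without the library that stands apart, 5 members were called higher and 3 lower. For the other event types, higher stands for more of the form that the tables count as inclusion, such as the retained intron. The stricter fit called 2 members and 1.89% of all events.

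For cadmium in numr-1/2(RNAi), 11 of 939 members were called (1.17%), against 4.38% of all tested events. Of these, 8 were higher and 3 lower, beside 1.58% of all events higher and 2.8% lower, and the stricter fit called 7 members and 2.59% of all events. For cadmium in ints-4(RNAi), 1 of 417 members was called (0.24%), higher, against 0.635% of all tested events, of which 0.181% were higher and 0.454% lower. The stricter fit called the same number of members and 0.363% of all events. The difference between the members' share and that of all events, which include the members, was not tested in any comparison.

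Without cadmium, numr-1/2(RNAi) differed from control(RNAi) in 12 of 887 members (1.35%), against 6.32% of all tested events. Of these, 7 were higher and 5 lower, beside 5.12% of all events higher and 1.2% lower. The stricter fit called 8 members and 4.66% of all events. Without cadmium, ints-4(RNAi) differed from control(RNAi) in 11 of 992 members (1.11%), against 2.25% of all events. Here 3 were higher and 8 lower, beside 1.17% of all events higher and 1.08% lower, and the stricter fit called 4 members and 0.944% of all events.

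With cadmium, numr-1/2(RNAi) differed from control(RNAi) in 9 of 402 members (2.24%), against 9.08% of all events. Of these, 2 were higher and 7 lower, beside 7.47% of all events higher and 1.61% lower. The stricter fit called 7 members and 7.56% of all events. With cadmium, ints-4(RNAi) differed from control(RNAi) in 4 of 780 members (0.513%), against 1.58% of all events. Here 1 was higher and 3 lower, beside 0.759% of all events higher and 0.825% lower. The stricter fit called 0 members and 0.264% of all events, while 33 members had an unadjusted p under 0.05 in the fit reported and limma on the deposited levels called 1.

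Without the library that stands apart, the members called for cadmium in control(RNAi) were 8, with 2.87% of all events called. For the RNAi groups with cadmium they were 6 (numr-1/2 RNAi, 7.52% of all events) and 3 (ints-4 RNAi, 1.42% of all events). The interaction tests called 2 members of 471 for numr-1/2(RNAi), with 0.44% of all events called, and 1 of 434 for ints-4(RNAi), with 0.507%. In the stricter fit these were 2 and 1 members, with 0.264% and 0.323% of all events.

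The share of frame-preserving longer exons called was 2.13% for cadmium in control(RNAi) and 3.44% for cadmium in numr-1/2(RNAi). The events of the other 4 types, which are retained introns, mutually exclusive exons and alternative splice sites, were called at 7.68% and 8.92% in the same comparisons. A change in level of at least 10 points was seen for 38 of 768 members (4.95%) with cadmium in control(RNAi), against 13.4% of all tested events. Over the 7 comparisons such changes were seen for 3.02% to 7.71% of members and 7.25% to 17.9% of all tested events, and the difference was not tested.

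**Figure D3:**
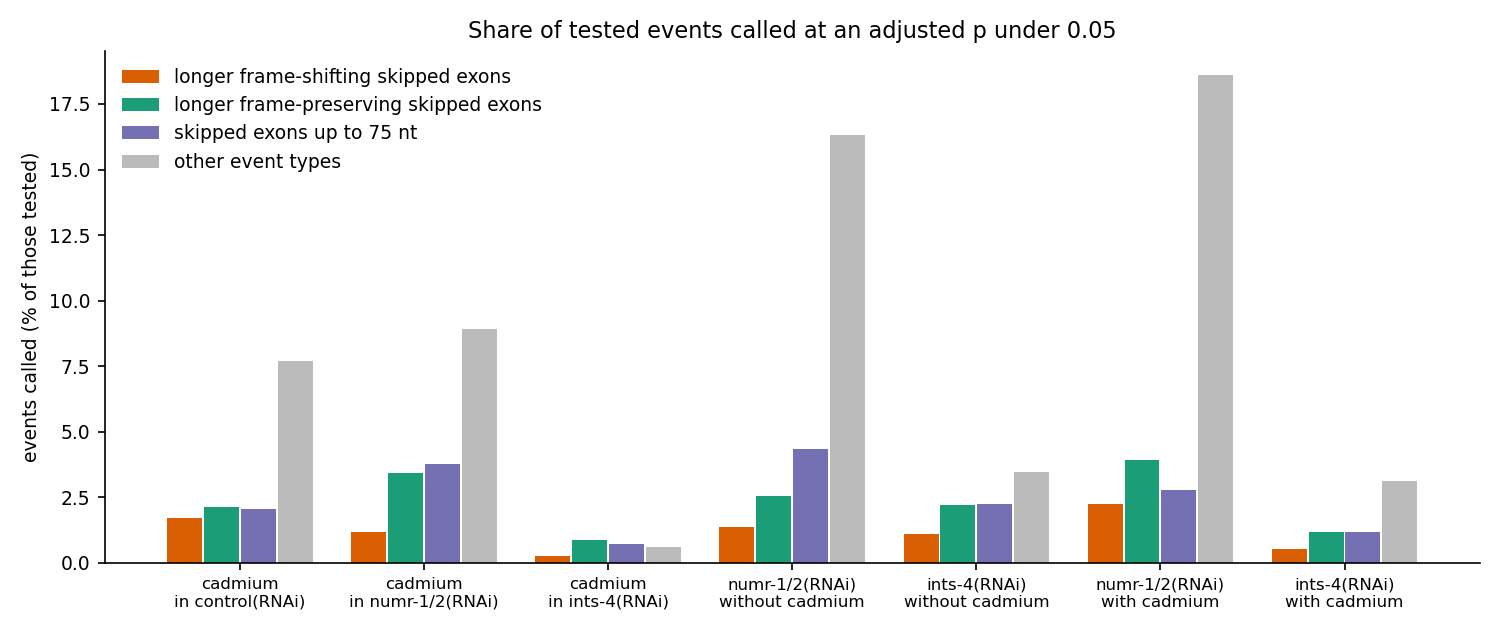
Share of tested events called (%) in each of the 7 comparisons for members, longer frame-preserving exons, exons of 75 nt or less, and the other event types. Members lie between 0.24% and 2.24%, and the other event types reach 18.6% for numr-1/2(RNAi) with cadmium.

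By function, the calls were spread over few genes. The function lists were drawn up with the members known. The genes below are pooled over the comparisons. Per comparison, 0.24% to 2.24% of tested members and 0.635% to 9.08% of all tested events were called. No list was tested against these shares. Of 53 transcription and chromatin genes with 81 tested events, hif-1 and lin-40 had calls. Among 48 genes for kinases, phosphatases and GTPase regulators with 63 tested events, the genes called were mtm-3, mbk-2, tbc-6, kin-1 and pct-1. Muscle, neuron and channel genes (31 genes, 56 tested events) gave lev-11, mlc-3 and unc-132, membrane traffic and autophagy genes (22 genes, 33 events) gave epg-8, and adhesion, polarity and matrix genes (17 genes, 23 events) gave par-3.

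The list of 29 RNA processing and small RNA genes, which does not hold the splicing gene rsp-5 that was called in 2 comparisons, had 38 tested events and gave 0 calls by the quasi-binomial test, by its stricter fit and by limma, and between 0 and 3 events per comparison with an unadjusted p under 0.05. Over all events the share called was 0.635% to 9.08%, and the list was drawn up with the members known. Nonsense-mediated decay factors gave 0 calls in 10 tested events of 3 genes by the same tests, none with an unadjusted p under 0.05. The test has little power for events with few reads of the rarer form. A lack of calls in these lists therefore does not show a lack of change. The summed pooled level of 9 such factors was 0.877 of that in control(RNAi) in control(RNAi) with cadmium, and 0.937 in numr-1/2(RNAi) and 1.11 in ints-4(RNAi) against control(RNAi).

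Among the transcription factors, the clearest change was in hif-1, the oxygen-regulated subunit of hypoxia-inducible factor that acts with EGL-9 in the response to low oxygen. Its exon of 203 nt (chromosome V, 20783326 to 20783528, plus strand, numbered as in the files, which match WBcel235) is coding throughout, both forms are annotated, and the forms differ in frame. The inclusion level was 8.7%, 7.6% and 5.1% in ints-4(RNAi), against 20.2%, 19.4% and 16.3% in control(RNAi). The exon was thus in a smaller share of the hif-1 mRNA in every ints-4(RNAi) library, with no overlap. The mean fell to 7.13% ± 1.85 in ints-4(RNAi), against 18.6% ± 2.06 in control(RNAi) (SD, n = 3 each), with a log2 odds ratio of -1.57 (adjusted p = 2.5e-28, and 3.7e-12 in the stricter fit), and the call held when any single library was left out. limma did not call it (adjusted p = 0.154 on levels and 0.382 on log2 ratios). It rested on 518 inclusion and 2842 skipping reads in ints-4(RNAi), against 1716 and 3163 in control(RNAi). The pooled level of the whole gene was 6127 in ints-4(RNAi) and 8622 in control(RNAi).

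Cadmium moved the same hif-1 exon less. Levels were 14.1%, 14.3% and 13.4% in control(RNAi) with cadmium, against 20.2%, 19.4% and 16.3% in control(RNAi), a log2 odds ratio of -0.48 (adjusted p = 0.0116) with no overlap. That call was missed in the stricter fit (adjusted p = 0.0566) and held in 3 of the 6 left-out fits, with adjusted p up to 0.15 without control(RNAi) replicate 1 or 2 or control(RNAi) with cadmium replicate 3. In ints-4(RNAi) the values ran the other way, at 10.3%, 10.5% and 10% with cadmium against 8.7%, 7.6% and 5.1% without it, but this missed the threshold (log2 odds ratio 0.60, adjusted p = 0.0518). The difference between the 2 cadmium effects was 1.08 on the log2 odds scale (adjusted p = 0.00182, and 0.00765 in the stricter fit), where 0.507% of all events were called. It was lost without ints-4(RNAi) replicate 3 (adjusted p = 0.0776) and held in the other 11 left-out fits.

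In numr-1/2(RNAi) the hif-1 exon stood at 17.5%, 20.3% and 19%, within the range of control(RNAi) or just above it (adjusted p = 0.818). With cadmium it was at 16.1%, 17.9% and 18.3% in numr-1/2(RNAi), against 14.1%, 14.3% and 13.4% in control(RNAi), a difference that missed the threshold (log2 odds ratio 0.39, adjusted p = 0.052). The 2 other hif-1 members share an exon end and are 257 and 251 nt long, and they were at 99.8%, 100% and 100% in ints-4(RNAi) and 100% in each control(RNAi) library.

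The gene egl-9 encodes the prolyl hydroxylase that marks HIF-1 for degradation, and its 95 nt exon (chromosome V, 10474093 to 10474187) changes the frame when skipped. Skipping was seen mainly in control(RNAi), with levels of 85.2%, 77.2% and 96.1%, while every library of numr-1/2(RNAi) with cadmium, control(RNAi) with cadmium and ints-4(RNAi) was at 100%. The gap was not called, with 0 skipping and 207 inclusion reads in control(RNAi) with cadmium against 11 and 108 in control(RNAi) (adjusted p = 0.27), and in ints-4(RNAi) against control(RNAi) the adjusted p was 0.336. A difference in egl-9 skipping was not detectable at this depth.

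For lin-40, a subunit of the NuRD chromatin complex, the frame-changing 311 nt exon was at 7.6%, 13.9% and 11.6% in numr-1/2(RNAi) with cadmium, against 21.8%, 12.8% and 18.3% in control(RNAi) with cadmium. The groups overlapped, and the call (adjusted p = 0.0333) was missed in the stricter fit (0.0551) and without control(RNAi) with cadmium replicate 1 (0.286).

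Among the signalling enzymes, mtm-3 was the only gene of its list called for cadmium in control(RNAi). It encodes a myotubularin phosphatase of phosphoinositide lipids. Its 335 nt exon (chromosome III, 3791280 to 3791614, minus strand) is coding, and the 2 annotated forms differ in frame. Levels were 10.8%, 9.2% and 9.4% in control(RNAi) with cadmium, against 27.3%, 26% and 17.9% in control(RNAi). All cadmium libraries lay below all libraries without it. The mean fell to 9.80% ± 0.872 in control(RNAi) with cadmium, against 23.7% ± 5.09 in control(RNAi) (SD, n = 3 each), a log2 odds ratio of -1.48 (adjusted p = 4.5e-08, and 2.8e-05 in the stricter fit), called without any 1 library as well, but not by limma (adjusted p = 0.241 on levels). The pooled level of the whole gene was 4014 in control(RNAi) with cadmium and 4100 in control(RNAi).

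Under numr-1/2(RNAi) the mtm-3 exon was higher, most clearly with cadmium. With cadmium the levels were 24.6%, 25.2% and 27.3% in numr-1/2(RNAi), against 10.8%, 9.2% and 9.4% in control(RNAi), with no overlap and a log2 odds ratio of 1.66 (adjusted p = 8.5e-14, and 3.4e-12 in the stricter fit). Without cadmium they were 29.9%, 32.8% and 31.2% in numr-1/2(RNAi), against 27.3%, 26% and 17.9% in control(RNAi), a log2 odds ratio of 0.59 (adjusted p = 0.00943). The second call was lost without control(RNAi) replicate 3 or numr-1/2(RNAi) replicate 2, at adjusted p up to 0.487, whereas the first held without any single library.

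Cadmium lowered the mtm-3 exon less in numr-1/2(RNAi) than in control(RNAi). In numr-1/2(RNAi) the cadmium effect was -0.40 on the log2 odds scale and missed the threshold (adjusted p = 0.0857). The difference between the 2 effects was 1.07 (adjusted p = 0.0172, and 0.0377 in the stricter fit), where 0.44% of all events were called. Its adjusted p ran between 0.00187 and 0.17 over the 12 fits that each left out 1 library, 7 of which kept the call, and it was lost without control(RNAi) replicate 1 or 2, control(RNAi) with cadmium replicate 2, numr-1/2(RNAi) replicate 1 or numr-1/2(RNAi) with cadmium replicate 3. In ints-4(RNAi) the exon was at 14.8%, 15.6% and 18% with cadmium against 19.5%, 28.4% and 22.1% without it, and this was not called (adjusted p = 0.0829). With cadmium, those ints-4(RNAi) libraries were higher than control(RNAi) (adjusted p = 0.0474), but not in the stricter fit (0.227).

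**Figure D4:**
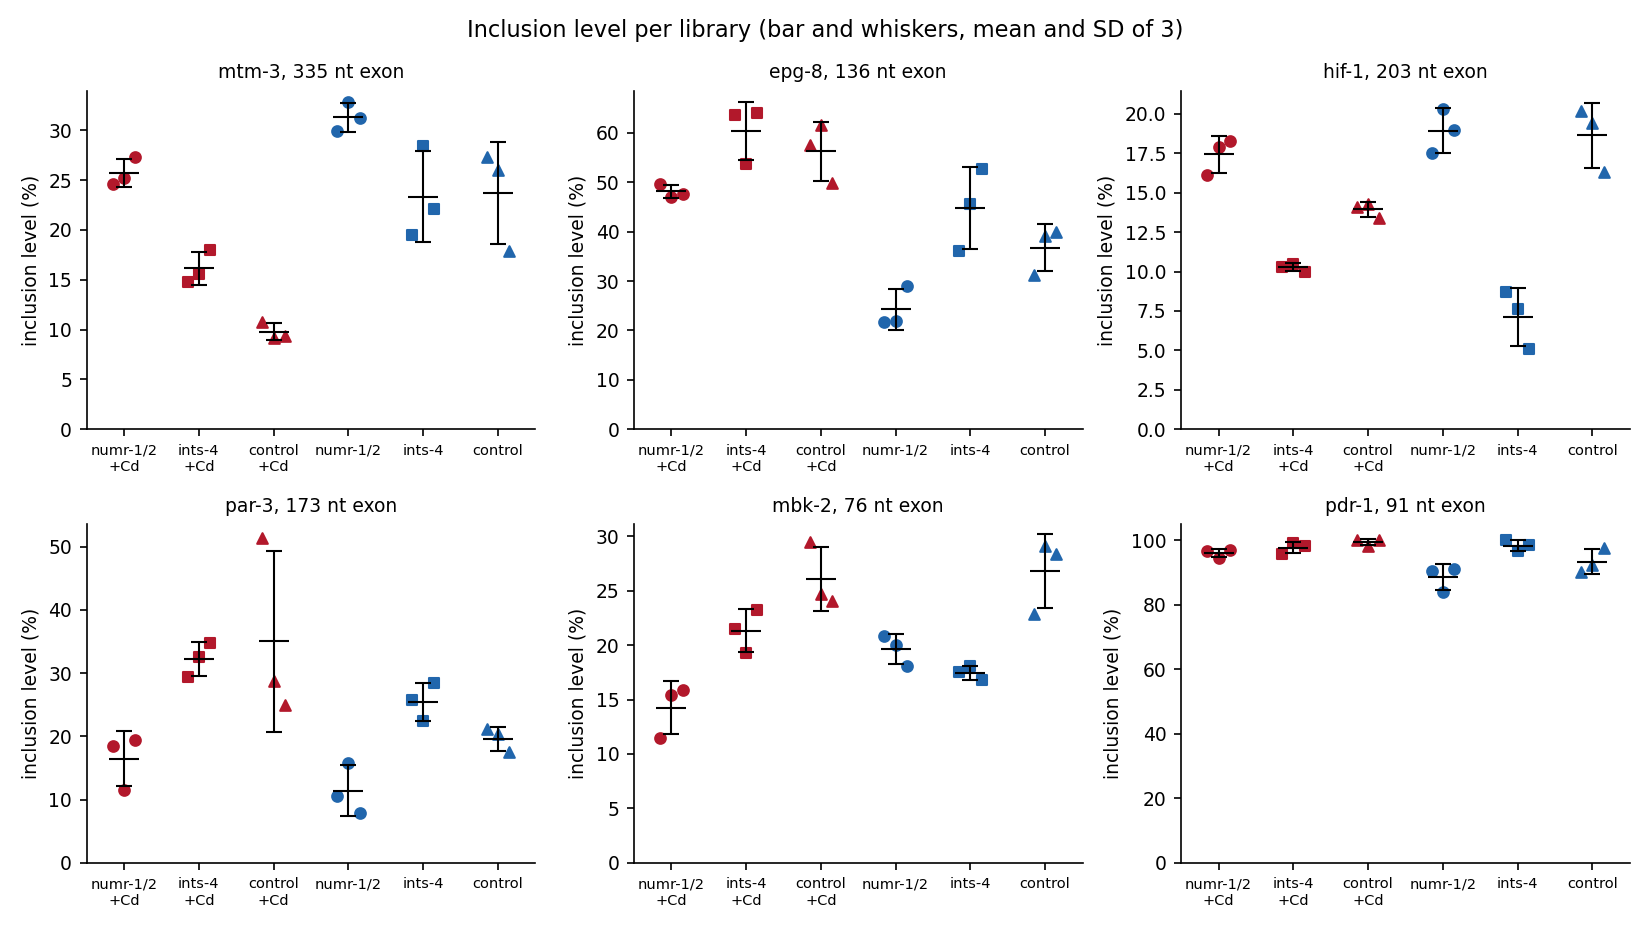
Inclusion level (%) in each of the 3 libraries of the 6 groups for exons of mtm-3, epg-8, hif-1, par-3, mbk-2 and pdr-1, with bars and whiskers for the mean and SD. Red points are cadmium groups and blue points groups without cadmium; the mtm-3 points of control(RNAi) with cadmium lie at 9.2% to 10.8%, below every other group.

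The kinase gene mbk-2, a DYRK-family kinase needed at the change from oocyte to embryo, had a 76 nt exon (chromosome IV, 13034453 to 13034528, plus strand) that is partly coding, just over the length rule. The exon was less included in both RNAi groups. It was at 17.5%, 18.1% and 16.8% in ints-4(RNAi), against 22.9%, 29.1% and 28.4% in control(RNAi), a log2 odds ratio of -0.81 (adjusted p = 0.00224, and 0.025 in the stricter fit). With cadmium it was at 11.5%, 15.4% and 15.9% in numr-1/2(RNAi), against 29.5%, 24.7% and 24.1% in control(RNAi), a log2 odds ratio of -1.06 (adjusted p = 7.4e-05, and 0.000247 in the stricter fit). Neither pair of groups overlapped, and both calls held without any single library. Without cadmium, numr-1/2(RNAi) was at 20.8%, 20% and 18.1% (adjusted p = 0.0351), a call that the stricter fit missed (0.0974) and 1 of 6 left-out fits kept. Cadmium in control(RNAi) left the exon within its spread (adjusted p = 0.894). Of 8 oocyte and germline genes, 2 had a higher pooled level in ints-4(RNAi) than in control(RNAi), with a median log2 ratio of -0.93, a range of -3.32 to 0.27 and a summed level of 0.921 of that in control(RNAi). In numr-1/2(RNAi) all 8 were higher, with a median log2 ratio of 1.27 and a sum of 1.84 times that in control(RNAi). The part of these differences in the result was not tested.

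In tbc-6, which encodes a protein with a Rab GTPase-activating domain, a partly coding 77 nt exon was at 73%, 43.2% and 69.8% in numr-1/2(RNAi), against 38.8%, 24.8% and 38.4% in control(RNAi). The groups did not overlap (adjusted p = 0.0266), but the spread was wide, the stricter fit missed it (0.0786), and 3 of 6 left-out fits kept it. The untranslated 691 nt exon of pct-1, a cyclin-dependent kinase of the PCTAIRE type, was at 7.6%, 8.2% and 5.7% in numr-1/2(RNAi) with cadmium, against 11%, 22.3% and 21.4% in control(RNAi) with cadmium (adjusted p = 0.0178, 0.0317 in the stricter fit, and 0.00103 without control(RNAi) with cadmium replicate 1). The pct-1 call was kept by only that 1 of the 6 left-out fits.

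In autophagy, an epg-8 exon gained inclusion with cadmium. EPG-8 is the C. elegans counterpart of ATG14, a part of the lipid kinase complex that starts autophagosomes. Its 136 nt exon (chromosome I, 9933862 to 9933997, minus strand) is coding with both forms annotated. Levels were 49.6%, 47.1% and 47.7% in numr-1/2(RNAi) with cadmium, against 21.8%, 22.0% and 29.1% in numr-1/2(RNAi). With cadmium the included form was thus nearly as common as the skipped one, and the groups did not overlap. The log2 odds ratio was 1.55 (adjusted p = 3.7e-08, and 1.4e-06 in the stricter fit), and the call held without any single library but not in limma (adjusted p = 0.0993 on levels).

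In control(RNAi) the epg-8 exon was at 57.5%, 61.5% and 49.8% with cadmium, against 31.3%, 39.1% and 39.9% without it, a log2 odds ratio of 1.16 (adjusted p = 0.0251) that the stricter fit missed (0.0979) and 3 of 6 left-out fits kept. In ints-4(RNAi) it was at 63.6%, 53.7% and 64% with cadmium, against 36.1%, 45.7% and 52.6% without it, which was not called (log2 odds ratio 0.90, adjusted p = 0.131). The gain was thus 23.8 points in numr-1/2(RNAi), 19.5 in control(RNAi) and 15.6 in ints-4(RNAi), with no overlap in any background. The interactions gave no call for it, at 0.39 in numr-1/2(RNAi) over control(RNAi) (adjusted p = 0.951) and -0.26 in ints-4(RNAi) over control(RNAi) (adjusted p = 0.939), so a difference between the backgrounds was not shown.

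Next to it, the 166 nt exon of epg-8 (chromosome I, 9933532 to 9933697) has no annotated skipped form. No skipping read was seen in control(RNAi) with cadmium beside 651 inclusion reads, whereas control(RNAi) had 34 beside 618 and stood at 85.9%, 96.4% and 78.6%. The adjusted p was 0.033, and the stricter fit missed it (0.123), as did 4 of 6 left-out fits.

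Among genes of ubiquitin ligases, pdr-1 is the homolog of parkin, which marks damaged mitochondria. Its 91 nt exon (chromosome III, 13772360 to 13772450, plus strand) is coding, and its annotated forms differ in frame. Skipping of it was rarer with cadmium in 2 of the 3 backgrounds. It was included at 96.7%, 94.5% and 96.8% in numr-1/2(RNAi) with cadmium, against 90.5%, 83.9% and 91.1% in numr-1/2(RNAi), with 36 against 123 skipping reads (log2 odds ratio 1.70, adjusted p = 0.00573, and 0.0231 in the stricter fit). In control(RNAi) it was at 100%, 98.2% and 100% with cadmium, against 90.1%, 92.2% and 97.7% without it, with 5 against 63 skipping reads (log2 odds ratio 3.47, adjusted p = 0.0187). The groups did not overlap in either case. In ints-4(RNAi) the exon was at 95.8%, 99% and 98.3% with cadmium, against 100%, 96.5% and 98.4% without it, with 18 against 16 skipping reads (adjusted p = 0.962). The numr-1/2(RNAi) call was lost without numr-1/2(RNAi) replicate 2 or numr-1/2(RNAi) with cadmium replicate 3 (adjusted p up to 0.183), and the control(RNAi) call was missed in the stricter fit (0.0826) and without control(RNAi) with cadmium replicate 1 (0.0648).

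A partly coding 107 nt exon of zer-1, a substrate-binding subunit of a cullin ligase, was at 53.2%, 52.7% and 55.4% in numr-1/2(RNAi) with cadmium, against 40.6%, 44.5% and 46.2% in numr-1/2(RNAi). This was a log2 odds ratio of 0.58 without overlap (adjusted p = 0.0118, and 0.0413 in the stricter fit), lost without numr-1/2(RNAi) replicate 1 or numr-1/2(RNAi) with cadmium replicate 3 (adjusted p up to 0.171). The 622 nt exon of fbxa-59, an F-box gene, was at 99.1%, 92.8% and 100% in numr-1/2(RNAi) with cadmium, against 91.7%, 80.9% and 77.4% in numr-1/2(RNAi) (adjusted p = 0.0395), and the stricter fit missed it (0.108). In control(RNAi) the fbxa-59 exon did not gain. It was at 100%, 95.8% and 88.8% with cadmium, with 20 skipping reads, against 97.5%, 100% and 100% without it, with 1. In ints-4(RNAi) it was at 86.8%, 100% and 90.5% with cadmium, against 89.5%, 100% and 75.4% without it.

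Cell polarity was represented by par-3, the scaffold that sets up the anterior cortex of the embryo and the apical side of epithelia. Its 173 nt exon (chromosome III, 5674017 to 5674189, plus strand) is coding, and its annotated forms differ in frame. With cadmium it was less included after numr-1/2 RNAi. Levels were 18.5%, 11.5% and 19.4% in numr-1/2(RNAi) with cadmium, against 51.4%, 28.7% and 25% in control(RNAi) with cadmium, without overlap (log2 odds ratio -1.42, adjusted p = 0.000114, and 0.000375 in the stricter fit). The high value of 51.4% is that of the library that stands apart, and the call held without it at adjusted p = 0.03.

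Without cadmium par-3 was at 10.6%, 15.8% and 7.8% in numr-1/2(RNAi), against 21.1%, 20.3% and 17.5% in control(RNAi) (log2 odds ratio -0.91, adjusted p = 0.0327), which the stricter fit missed (0.0921). For cadmium in control(RNAi) the call (log2 odds ratio 1.08, adjusted p = 0.022) ended without replicate 1 (adjusted p = 0.476). ints-4(RNAi) was at 25.7%, 22.4% and 28.4%, above control(RNAi) in each library, but was not called.

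Among muscle genes, lev-11 differed between RNAi groups by more than the spread between libraries. It encodes tropomyosin, the coiled-coil protein along actin filaments, in several isoforms. Its 208 nt exon (chromosome I, 14622304 to 14622511, minus strand) is partly coding, with both forms annotated. The levels were 6.9%, 6.6% and 7.1% in numr-1/2(RNAi), against 3.9%, 4.4% and 3.9% in control(RNAi), a log2 odds ratio of 0.81 (adjusted p = 2.4e-28, and 9.8e-23 in the stricter fit). In ints-4(RNAi) they were 1.7%, 1.9% and 1.8% against the same control(RNAi) libraries, a log2 odds ratio of -1.20 (adjusted p = 2.7e-42, and 5.9e-17 in the stricter fit). The 2 knockdowns thus lay on opposite sides of control(RNAi), with no overlap, and both calls held without any single library.

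With cadmium the lev-11 exon kept that order. It was at 6.1%, 7.1% and 6.8% in numr-1/2(RNAi), at 1.7%, 1.8% and 1.6% in ints-4(RNAi) and at 2.1%, 3.4% and 3.7% in control(RNAi). The numr-1/2(RNAi) value was not tested against control(RNAi) with cadmium, because the event is listed there with other ends of the neighbouring exons. In ints-4(RNAi) the log2 odds ratio was -0.81 (adjusted p = 1.4e-12), and the stricter fit missed it (0.501). Without control(RNAi) with cadmium replicate 1 the adjusted p was 9.1e-24. Cadmium in control(RNAi) was called at -0.45 (adjusted p = 9.6e-05), but not without replicate 1 (0.338).

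A second event joins the same 208 nt exon to the 86 nt exon that follows it in the files' coordinates. There it was at 57.4%, 63.8% and 60.1% in numr-1/2(RNAi), against 41.4%, 38.6% and 34.5% in control(RNAi) (log2 odds ratio 1.29, adjusted p = 7.8e-12). In ints-4(RNAi) it was at 17.6%, 20.8% and 23.7% against the same libraries (log2 odds ratio -1.25, adjusted p = 4.0e-12). The directions were those of the first event, but the events share reads and are not independent. In ints-4(RNAi) with cadmium the second event was at 22.3%, 20.2% and 20%, against 19.2%, 39.3% and 36.2% in control(RNAi) with cadmium, overlapping (adjusted p = 0.0105, 0.816 in the stricter fit, and 7.6e-08 without replicate 1).

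The 86 nt exon of lev-11 (chromosome I, 14622658 to 14622743) was at 2.9%, 2.3% and 2.8% in numr-1/2(RNAi), against 3.4%, 3.8% and 4.4% in control(RNAi) (log2 odds ratio -0.52, adjusted p = 0.00678, and 0.0265 in the stricter fit), lost without control(RNAi) replicate 3 or numr-1/2(RNAi) replicate 2 (adjusted p up to 0.125). With cadmium, another event of the same exon was called lower in numr-1/2(RNAi) than in control(RNAi) (adjusted p = 0.04), but not without replicate 1 of control(RNAi) with cadmium (0.404).

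**Figure D5:**
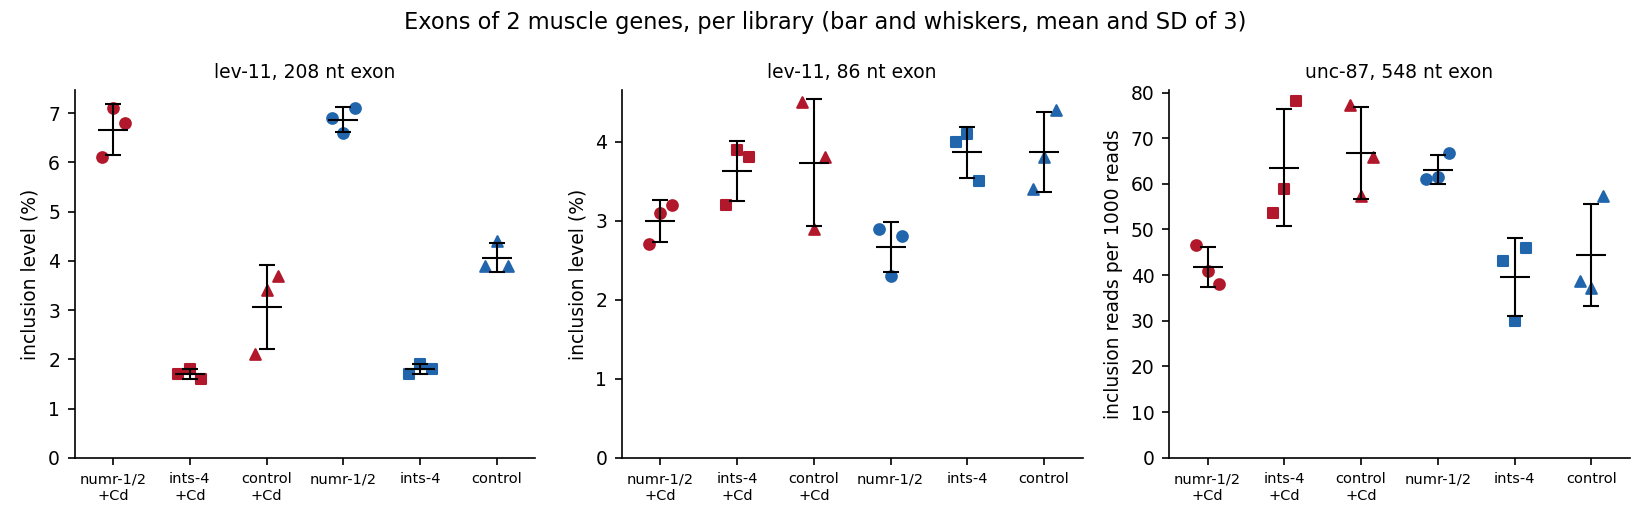
Values by library in the 6 groups for the muscle gene members: inclusion level (%) of the lev-11 exons and inclusion reads per 1000 reads of the unc-87 event, with bars and whiskers for the mean and SD and cadmium groups in red. The lev-11 exon of 208 nt is at 6.1% to 7.1% in both numr-1/2(RNAi) groups and at 1.6% to 1.9% in both ints-4(RNAi) groups.

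For unc-87, which encodes a calponin-related protein that binds actin in body wall muscle, the member is a stretch of 548 nt (chromosome I, 6765007 to 6765554, minus strand) that is not an annotated exon. The files do not separate reads across its junctions from reads inside it. Because inclusion reads can fall on 565 positions and skipping reads on 31, its level is below 1%, and the reads are given instead. Inclusion reads per 1000 reads of the event were 77.3, 57.3 and 65.8 in control(RNAi) with cadmium, against 38.8, 37.3 and 57.3 in control(RNAi) (log2 odds ratio 0.63, adjusted p = 9.6e-05). In numr-1/2(RNAi) they were 46.6, 41.0 and 38.0 with cadmium, against 61.1, 61.4 and 66.7 without it (log2 odds ratio -0.63, adjusted p = 7.6e-06).

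The sign of the cadmium effect on unc-87 thus differed between the 2 backgrounds. The difference between them was -1.26 on the log2 odds scale (adjusted p = 3.0e-09, and 5.6e-08 in the stricter fit), called in all 12 fits that each left out 1 library. In ints-4(RNAi) the reads were 53.7, 59.0 and 78 per 1000 with cadmium, against 43.1, 29.9 and 45.9 without it (log2 odds ratio 0.68, adjusted p = 2.7e-06, and 0.0136 in the stricter fit). Between the groups with and without cadmium of the same background, only those of control(RNAi) met, at 57.3 per 1000 in 1 library of each. The group numr-1/2(RNAi) was above control(RNAi) without cadmium (0.53, adjusted p = 0.000537) and below it with cadmium (-0.73, adjusted p = 2.5e-07). Summed moulting epidermis genes were 0.182 and summed body muscle genes 0.737 of control(RNAi) in numr-1/2(RNAi) without cadmium, and their part was not tested.

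In unc-132 an 80 nt exon was at 88.5%, 66.7% and 37.2% in ints-4(RNAi), against 19.4%, 1.3% and 24.8% in control(RNAi). This was the largest difference of any called member, at 49 points without overlap (adjusted p = 0.00453), although it rested on 43 inclusion and 20 skipping reads in ints-4(RNAi), was missed in the stricter fit (0.0672) and was kept by 3 of 6 left-out fits. The other muscle gene called was mlc-3, a myosin light chain. It had 38 skipping reads beside 185609 inclusion reads in ints-4(RNAi) and 0 beside 165357 in control(RNAi), which the stricter fit missed (adjusted p = 0.102). The 38 reads came from 2 libraries, 68.4% of them from 1. With cadmium, mlc-3 was also called lower in ints-4(RNAi) than in control(RNAi), and the stricter fit missed it. That call rested on 39 skipping reads from 2 libraries, 59% of them from 1.

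Among genes of RNA and ribosomes, rsp-5 encodes an SR splicing protein and stood outside the list above. The member is an 82 nt stretch (chromosome II, 6490801 to 6490882, plus strand) that is not an annotated exon. It was at 0.1%, 1.5% and 1.4% in numr-1/2(RNAi) with cadmium, against 9.7%, 2.4% and 3.4% in control(RNAi) with cadmium (log2 odds ratio -2.48, adjusted p = 0.00674). Against 1.4%, 0.0% and 1.1% in control(RNAi), those control(RNAi) with cadmium libraries were called higher (log2 odds ratio 2.64, adjusted p = 0.0337). Both calls turned on the library that stands apart, at 9.7%, and ended without it (adjusted p = 0.301 and 0.471).

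The ribosomal protein gene rps-3 was called in 3 comparisons on the skipping reads of 1 library. Its 133 nt exon had 46 skipping reads, all in control(RNAi) replicate 1, beside 216090 inclusion reads in the 3 control(RNAi) libraries, and 0 in each library of ints-4(RNAi), control(RNAi) with cadmium or numr-1/2(RNAi). The level of that library was 99.9% and that of every other one 100%, so the groups overlapped and these calls describe that library.

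In lmd-3, a gene with a LysM domain, a 682 nt stretch (chromosome V, 8422055 to 8422736, minus strand) that is not an annotated exon was at 53.5%, 43.0% and 46.3% in numr-1/2(RNAi), against 37.2%, 36.4% and 33% in control(RNAi). The groups did not overlap (log2 odds ratio 0.74, adjusted p = 0.000162, and 0.00141 in the stricter fit), but the call ended without numr-1/2(RNAi) replicate 1 (0.0689). With cadmium, control(RNAi) was at 40.5%, 51.0% and 44.3%, above all control(RNAi) libraries, which the stricter fit missed (adjusted p = 0.0385, against 0.134).

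Genes known by a sequence name made up much of the rest. F25H9.6 had a coding 127 nt exon (chromosome V, 13467826 to 13467952) at 99.5%, 98.0% and 95.5% in numr-1/2(RNAi) with cadmium, against 90%, 85.3% and 85.8% in numr-1/2(RNAi), with no overlap (log2 odds ratio 2.54, adjusted p = 0.00327, and 0.015 in the stricter fit), a call lost without numr-1/2(RNAi) with cadmium replicate 1 (0.0623). Against control(RNAi) at 94.8%, 97.5% and 99%, the numr-1/2(RNAi) libraries were called lower (log2 odds ratio -2.16, adjusted p = 0.0393), but not in the stricter fit (0.106) and in only 2 of 6 left-out fits (adjusted p up to 0.176).

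K12C11.3 moved the other way. Its coding 121 nt exon (chromosome I, 1335996 to 1336116) was at 56.4%, 53.5% and 59.1% in numr-1/2(RNAi) with cadmium, against 73.2%, 81.0% and 77.7% in numr-1/2(RNAi). The drop of 21 points was without overlap (log2 odds ratio -1.39, adjusted p = 0.0142, and 0.0481 in the stricter fit), and 3 of 6 left-out fits kept the call. In control(RNAi) it was at 80.8%, 81.2% and 81.8%.

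The remaining named members were called once or on few reads. tag-229 had 2 exons, of 158 nt at 96.7%, 96.8% and 95.3% in numr-1/2(RNAi) with cadmium against 86.6%, 91.1% and 89.9% in numr-1/2(RNAi) (adjusted p = 0.0399), and of 128 nt at 100%, 100% and 99.4% in control(RNAi) with cadmium against 93.8%, 93.4% and 91.1% in control(RNAi) (adjusted p = 0.049). The 128 nt exon was also at 100%, 100% and 99.1% in ints-4(RNAi) (adjusted p = 0.046), and all 3 calls were missed in the stricter fit. ZK418.13 had a 178 nt exon at 79.6%, 79.2% and 77.1% in numr-1/2(RNAi) with cadmium, against 28.9%, 69.7% and 50.6% in control(RNAi) with cadmium (adjusted p = 0.0274), and the call ended without control(RNAi) with cadmium replicate 1 (0.217).

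In F39G3.5 the 158 nt exon was at 81.2%, 80.3% and 92.8% in ints-4(RNAi), with 28 skipping reads, against 100% and 0 skipping reads beside 662 inclusion reads in control(RNAi) (adjusted p = 0.0112, and 0.0937 in the stricter fit). tag-163 had a 388 nt stretch that is not an annotated exon at 5.5%, 4.7% and 3.6% in ints-4(RNAi), against 16.9%, 24.1% and 9.0% in control(RNAi) (adjusted p = 0.0407, and 0.182 in the stricter fit). Y92H12BL.1 had a 146 nt exon at 97.6%, 99.1% and 97.3% in numr-1/2(RNAi) with cadmium, against 100% in each numr-1/2(RNAi) library (adjusted p = 0.0495). Most of these calls were thus near the threshold, and leaving out single libraries ended them.

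Called members outside the naming rule were F40F8.1, W06B4.2, W09G12.10, ZK154.6 and kin-1, besides mlc-3. Only F40F8.1 kept its call without any single library: its 167 nt stretch, not an annotated exon, was at 2.3%, 3.3% and 3.2% in numr-1/2(RNAi) with cadmium, against 1.1%, 1.3% and 1.5% in numr-1/2(RNAi) (log2 odds ratio 1.23, adjusted p = 0.00137, and 0.00751 in the stricter fit). It was picked out after its values were seen.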

How the data were processed

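The authors aligned the reads with HISAT2 2.1.0 per the labels, whose notes also name Cufflinks 2.1.1 and HTSeq 0.6.1, and detected splicing events with rMATS. The sources used here name no genome build, and exon ends were matched to the Ensembl WBcel235 annotation. The deposited gene tables hold 1 pooled, normalised signal per group, made by the authors before their own tests. The deposited splicing tables of 5 workbooks give inclusion and skipping read counts and inclusion levels (a fraction) of the 3 libraries joined in 1 cell. The cells were split by script, using the form lengths and levels. Of 25455 event groups with reads, 6254 could only be split by evenness of the reads. This takes the split whose 3 libraries are most alike, which can lower the spread between libraries. Where only 1 split fitted the levels, the rule picked it in 13135 of 13135 checked cell pairs. Without such events, 285 of 768 tested members remained for cadmium in control(RNAi). For ints-4(RNAi) without cadmium, 386 of 992 remained. A library's position in the cell is its replicate number. In the workbook for ints-4(RNAi) with cadmium the second group of the splicing tables equals control(RNAi) with cadmium in every shared event and was used as that group. The authors' fold changes, p-values, q-values and level differences were not used.

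Inclusion reads as a share of all reads of an event were tested by a quasi-binomial F test, with dispersions moderated by limma 3.58.1 (R 4.3.3), where each library had 10 or more reads for the event, and p-values were adjusted by Benjamini-Hochberg over all 5 event types. Tables were handled in Python 3.11.15 with pandas 2.3.3. The test was tried on simulated reads with the same dispersion of 4 for every event. Of the calls there, 5.91% were false in the fit reported and 2.44% in the stricter fit. The fit reported recovered 0.22% of changed events with few reads of the rarer form. These simulations cannot show how the test behaves where events differ in spread. No intervals are given. The p-values take the spread between the 3 biological replicates from a value shared across events. In the fit reported, an event's own spread between libraries did not enter its p-value. The exception is the interaction of cadmium and ints-4(RNAi), where it entered in part. Very small p-values thus rest on the shared value and on read depth.

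Named members were, per comparison, up to 8 called members, taken by their difference in level, if each library had 20 or more reads and the groups did not overlap, besides members called in 3 or more comparisons or an interaction, up to 3 per function list, and all of hif-1 and egl-9. The members and the lists were chosen with earlier results of these data known. Alternatives were another read minimum, skipped exons alone, 1 fit over all groups, a replicate block, limma on levels or log ratios, and leaving out each library. Sequences were not used here.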

Additional observations from a re-analysis of the deposited data

Results flagged for a closer look

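For 3 members the effect of cadmium differed between RNAi backgrounds by the interaction term of the quasi-binomial test, adjusted over all events tested. The mtm-3 exon of 335 nt had a difference of 1.07 on the log2 odds scale between the cadmium effects in numr-1/2(RNAi) and control(RNAi) (adjusted p = 0.0172), with a fall in level of 5.6 points in numr-1/2(RNAi) and of 13.9 points in control(RNAi). The unc-87 stretch of 548 nt had a difference of -1.26 between the same backgrounds (adjusted p = 3.0e-09), lower with cadmium in numr-1/2(RNAi) and higher in control(RNAi). The hif-1 exon of 203 nt had a difference of 1.08 between the cadmium effects in ints-4(RNAi) and control(RNAi) (adjusted p = 0.00182). The mtm-3 call was lost in 5 of the 12 fits that each left out 1 library (adjusted p up to 0.17), the hif-1 call in 1, without ints-4(RNAi) replicate 3 (adjusted p = 0.0776), and the unc-87 call in 0. None of the 3 was called by limma. For unc-87, limma on levels could not give a call, because all its levels fell below the lower bound of 0.01 set there. With the library that stands apart left out, the adjusted p were 0.01 for mtm-3, 3.8e-07 for unc-87 and 0.000385 for hif-1.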

How the results depend on the processing

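Counts of called members are given in the order cadmium in control(RNAi), in numr-1/2(RNAi) and in ints-4(RNAi), then numr-1/2 RNAi without cadmium, ints-4 RNAi without cadmium, numr-1/2 RNAi with cadmium, ints-4 RNAi with cadmium, and last the interactions of numr-1/2 RNAi, then of ints-4 RNAi. They were 13, 11, 1, 12, 11, 9, 4, 2 and 1 in the fit reported. A minimum of 20 reads gave 2 for cadmium in ints-4(RNAi) and skipped exons alone gave 2 there, while a minimum of 1 read left every count within 1.5 times. With all 6 groups in 1 fit, the counts were 13, 5, 1, 7, 2, 9, 2, 1 and 1. The stricter fit gave 2, 7, 1, 8, 4, 7, 0, 2 and 1, and leaving out cells split by evenness gave 8, 9, 0, 10, 5, 8, 1, 0 and 1. Both were chosen after seeing the data. limma on the deposited levels gave 3, 1, 0, 3, 4, 1, 1, 0 and 0, and limma on log2 ratios gave 0 throughout, with 45, 64, 18, 61, 67, 28, 52, 24 and 25 members at an unadjusted p under 0.05.

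Leaving out 1 library gave 4 to 12, 6 to 9, 1 to 2, 7 to 12, 6 to 12, 5 to 11, 1 to 4, 1 to 3 and 0 to 2 calls. The lowest counts came without control(RNAi) replicate 1, numr-1/2(RNAi) replicate 3, ints-4(RNAi) with cadmium replicate 1, numr-1/2(RNAi) replicate 3, ints-4(RNAi) replicate 2, numr-1/2(RNAi) with cadmium replicate 1, ints-4(RNAi) with cadmium replicate 3, control(RNAi) with cadmium replicate 2 and ints-4(RNAi) replicate 3. Of the calls of single members, 227 of 357 were kept over these fits, and none changed direction. The causes of these changes were not tested.

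Deviations of same-numbered libraries correlated between -0.11 and 0.17, and in no comparison did every pair exceed 0.1. These values cannot show whether same-numbered samples were grown or prepared together. A replicate block gave 0 calls in every comparison, with 18, 22, 9, 16, 13, 15, 13, 25 and 20 members at an unadjusted p under 0.05, and the block with the stricter fit (chosen after seeing the data) gave 0, 0, 0, 2, 2, 2, 0, 1 and 1.

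Depth is a limit, and changes near full inclusion rest on a few reads. For the 342 members with a level in all 18 libraries, skipping reads over these libraries had a median of 29.5 per member.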
